A study of Mus musculus with 24 samples.

Results

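Collagens are the main structural proteins of the extracellular matrix, and the genes described here are those that encode their chains. The members were all genes whose symbol in the platform annotation has the form Col, a type number, the letter a and a chain number, taken from probe sets annotated with a single symbol. Of 12393 genes with such a probe set, 36 were members. They comprised 9 fibrillar chains, 6 chains of type IV collagen, the collagen of basement membranes, and 21 chains of other types. A gene was tested if 3 or more of its 24 signals exceeded 218.3, the middle value of the whole data set; 25 of 36 members passed, among 8008 tested genes. These were 6 fibrillar chains, all 6 type IV chains and 13 others.

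A collagen molecule is a rod in which chains are wound around one another, and which chains combine decides what the molecule builds. The fibrillar types I, III and V assemble into the tensile fibrils of airway walls, vessels and alveolar septa, and are made mainly by fibroblasts and smooth muscle cells. Type IV chains form a sheet-like network under epithelia and endothelia: the chains of Col4a1 and Col4a2 combine in nearly all basement membranes, whereas those of Col4a3, Col4a4 and Col4a5 combine in specialised ones, among them those of the alveolus and the kidney glomerulus. Types VI, XII, XIV, XV, XVI and XVIII link fibrils or basement membranes to their surroundings, and type XIII spans the cell membrane.

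The promoters of 4 members are shown, because the results below turn on Col4a1 and Col4a2, which lie head to head on opposite strands, and on the fibrillar genes Col1a2 and Col3a1. RefSeq windows of the GRCm38.p6 build, 250 bases before to 50 bases after each start site, were matched by symbol for 27 of 36 members, with 30 windows in all. The windows lie at chr8:11312777-11313076 on the minus strand for Col4a1, chr8:11312555-11312854 on the plus strand for Col4a2, chr6:4505368-4505667 on the plus strand for Col1a2 and chr1:45311288-45311587 on the plus strand for Col3a1. Each is printed 5′ to 3′ on its own strand, and capitals mark 3 searched motifs on either strand: the GC box GGGCGG, the CCAAT box CCAAT and the TATA box TATAAA.
Col4a1 promoter: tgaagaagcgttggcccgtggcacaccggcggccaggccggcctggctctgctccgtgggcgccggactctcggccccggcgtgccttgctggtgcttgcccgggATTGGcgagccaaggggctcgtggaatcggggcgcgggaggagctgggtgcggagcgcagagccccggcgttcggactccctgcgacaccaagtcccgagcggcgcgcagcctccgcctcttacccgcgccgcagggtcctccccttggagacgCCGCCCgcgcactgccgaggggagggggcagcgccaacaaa
Col4a2 promoter: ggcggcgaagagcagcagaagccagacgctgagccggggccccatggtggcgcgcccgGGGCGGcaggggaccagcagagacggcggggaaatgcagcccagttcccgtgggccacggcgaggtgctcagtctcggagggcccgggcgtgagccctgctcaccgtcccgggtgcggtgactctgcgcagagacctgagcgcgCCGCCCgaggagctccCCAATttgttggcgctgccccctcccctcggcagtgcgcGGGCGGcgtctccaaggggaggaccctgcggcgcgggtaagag
Col1a2 promoter: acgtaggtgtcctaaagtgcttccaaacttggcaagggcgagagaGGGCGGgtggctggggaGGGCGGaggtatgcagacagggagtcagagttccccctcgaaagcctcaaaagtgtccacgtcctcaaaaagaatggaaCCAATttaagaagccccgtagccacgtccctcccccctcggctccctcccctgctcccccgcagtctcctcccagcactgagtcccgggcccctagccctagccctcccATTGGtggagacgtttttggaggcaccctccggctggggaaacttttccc
Col3a1 promoter: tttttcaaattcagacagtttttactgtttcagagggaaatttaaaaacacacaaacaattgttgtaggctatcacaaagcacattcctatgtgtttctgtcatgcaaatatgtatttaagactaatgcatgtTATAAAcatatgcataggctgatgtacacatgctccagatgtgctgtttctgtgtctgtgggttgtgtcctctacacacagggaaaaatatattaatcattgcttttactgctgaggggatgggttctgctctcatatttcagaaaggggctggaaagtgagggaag
The start sites of Col4a1 and Col4a2 lie 21 bases apart, so their windows share 78 bases, which read as each other's reverse complement and hold the only GC box of the Col4a1 window. Both windows are rich in G and C, at 74% for Col4a1 and 73.7% for Col4a2, against a median of 52.7% over 32851 windows. The Col4a1 window holds 1 GC box and 1 CCAAT box, the Col4a2 window 3 GC boxes and 1 CCAAT box, and the Col1a2 window 2 of each. The Col3a1 window has 37.7% G and C and holds 1 TATA box and neither of the other motifs. Among all windows, 35.7% held the GC box, 37.4% the CCAAT box and 13.6% the TATA box, and among the 30 member windows the numbers were 17, 12 and 5. These matches describe letters only.

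The values come from Affymetrix arrays of RNA from the left lung lobe of male mice, 1 array per mouse and 3 mice per group. C3H/HeOuJ mice (OuJ), which carry functional Tlr4, and C3H/HeJ mice (HeJ), which carry a dominant-negative Tlr4, were kept in filtered air or exposed to ozone for 6, 24 or 48 h, giving 8 groups and 24 arrays. Tlr4 is the receptor through which cells sense bacterial endotoxin. The sources used here give neither ages nor an ozone concentration, and the 72 h exposures that the labels mention were not analysed here. All differences below are of log2(signal + 16), given ± SE, and a gene is said to have risen or fallen where the adjusted p from limma, fitted to all 24 arrays and 8008 genes, was under 0.05. Folds on this scale understate the change of dim genes.

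By their code names the arrays form 3 series, which matters for the ozone comparisons. Series 3 holds air and 6 h of both strains, series 10 holds OuJ at 24 and 48 h, and series 13 holds HeJ at 24 and 48 h. Effects of 24 or 48 h against air and of the code series therefore cannot be told apart, while 6 h against air, 48 h against 24 h and the strain comparison in air lie within 1 series. The ozone comparisons of a strain also share their 3 air arrays. In addition, 4 arrays carry a code suffix (HeJ air replicate 2, HeJ 6 h replicate 2 and HeJ 24 h replicates 1 and 3), and results are given without them where a call changes. The ratio of 5′ to 3′ Gapdh signal, a measure of RNA integrity, averaged 0.843 to 0.894 in the OuJ groups and 0.558 to 0.753 in the HeJ groups. Lung markers were bright on every array, with signals from 27216 to 40839 for Sftpc of alveolar type 2 cells and from 12835 to 19231 for Ager of alveolar type 1 cells, while the cartilage markers were dim, Comp reaching 127 at most.

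Of 25 members, 8 (32%) were called in at least 1 of 12 comparisons, where 22.9% of all tested genes were, and 17 were called in none. Of the 10 calls in all, 7 fell on type IV chains and 9 on HeJ lungs. Col4a1 and Col4a3 were each counted more than once, in comparisons that share HeJ arrays. Over all genes, HeJ lungs also had more calls than OuJ lungs at 24 h (569 against 526) and 48 h (970 against 633). They also had more from 24 to 48 h (438 against 12), but fewer at 6 h (3 against 11). No member was called in the strain difference of any response. In HeJ lungs Col4a1 and Col4a2 rose at 24 h while Col6a3 fell, and at 48 h Col4a3 and Col4a5 fell while Col5a2 rose. In OuJ lungs the only call was a fall of Col4a4 at 48 h. From 24 to 48 h in HeJ lungs, Col4a1 and Col4a3 fell and Col13a1 rose.

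Each count was read against the share of all tested genes called in the same comparison. In HeJ lungs 3 of 25 members (12%) were called at 24 h, where 7.11% of all genes were called, and 3 of 25 at 48 h, where 12.1% were. In OuJ lungs 1 of 25 members (4%) was called at 48 h, with 7.9% of all genes, and 0 of 25 at 24 h, with 6.57%. Between 24 and 48 h, 3 of 25 members were called in HeJ lungs, with 5.47% of all genes, and 0 of 25 in OuJ lungs, with 0.15%. None was called by limma at 6 h (0.137% of all genes in OuJ and 0.0375% in HeJ), between the strains in air (0.774%) or in the strain difference of any response (0.0125% at 6 h, 0.0125% at 24 h and 0% at 48 h). At an unadjusted p under 0.05, the comparisons without a call held 1 member (OuJ 6 h), 4 (OuJ 24 h), 4 (HeJ 6 h), 4 (OuJ 48 h against 24 h), 6 (strains in air) and 3, 2 and 1 (strain difference at 6, 24 and 48 h). The median difference of the 25 members lay between -0.17 and 0.17 in all 12 comparisons, while that of all genes lay between -0.03 and 0.01.

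Counted by arrays that do not overlap, the members also lay near the background in most comparisons with air. In OuJ lungs 1 of 25 members had all 3 arrays above air at 6 h (4%, against 7.94% of all genes), 1 at 24 h (4%, against 11.2%) and 3 at 48 h (12%, against 12.5%). There 0 lay below air at 6 h (0%, against 9.03%), 5 at 24 h (20%, against 15%) and 4 at 48 h (16%, against 17.3%). In HeJ lungs 1 lay above air at 6 h (4%, against 5.38%), 2 at 24 h (8%, against 10.7%) and 2 at 48 h (8%, against 13.7%), and 1 lay below at 6 h (4%, against 7.06%), 4 at 24 h (16%, against 13.6%) and 4 at 48 h (16%, against 17.1%). Between 24 and 48 h in OuJ lungs 4 members lay above the earlier arrays (16%, against 7.31%) and 4 below them (16%, against 7.19%).

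**Figure D1:**
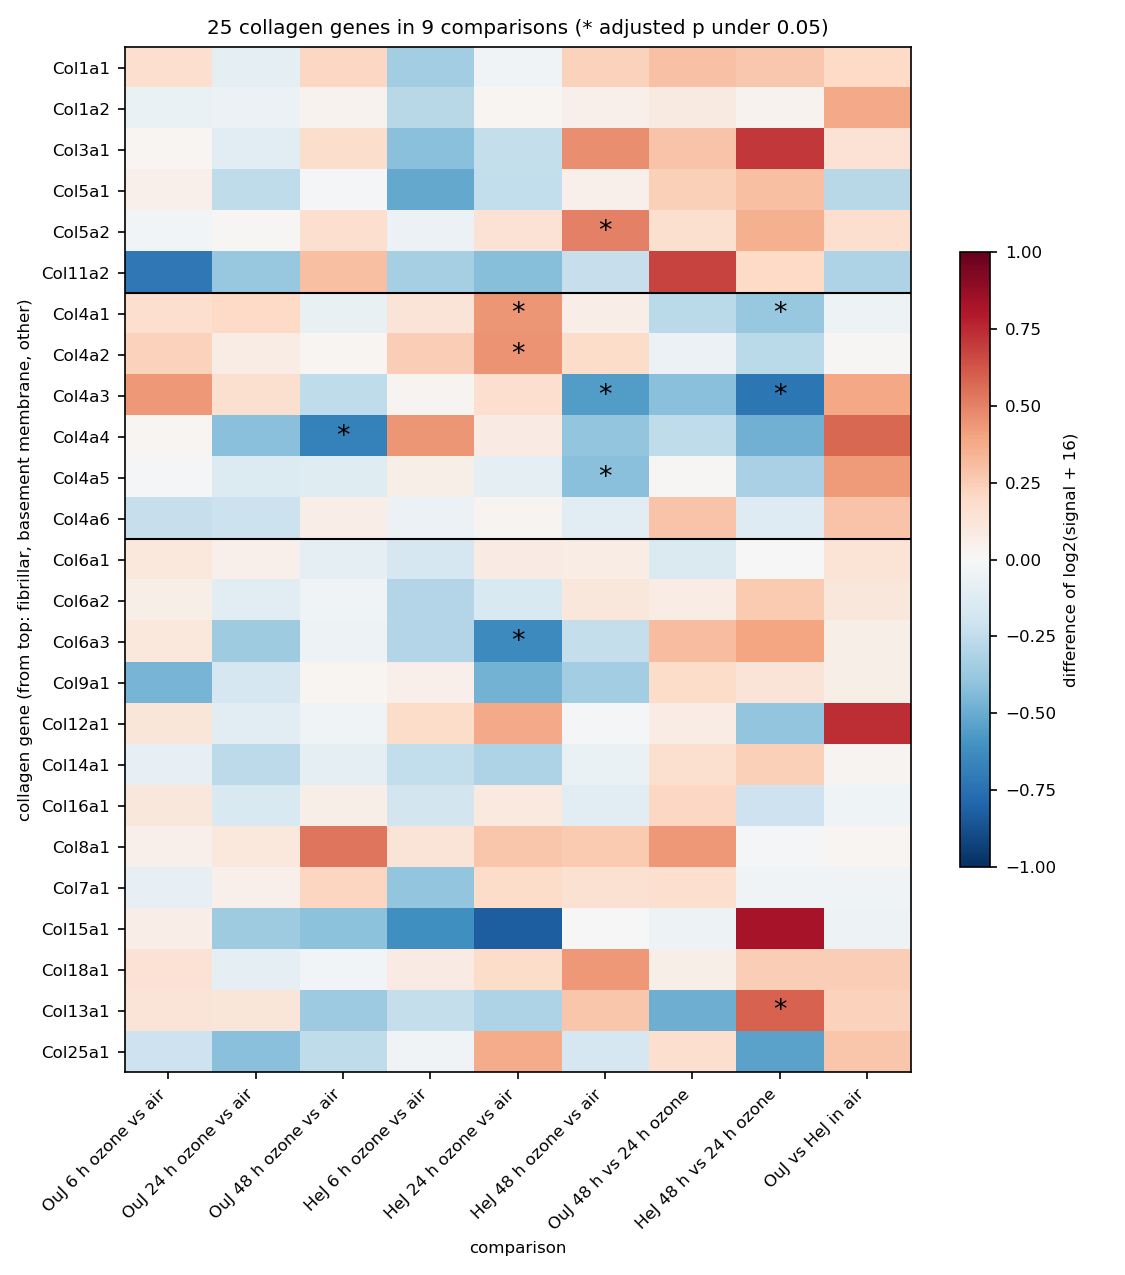
Difference of log2(signal + 16) (colour) for the 25 tested collagen genes (rows; fibrillar, basement membrane and other chains separated by lines) in 9 comparisons (columns), each of 3 arrays against 3; asterisks mark an adjusted p under 0.05. The 10 asterisks fall on 8 genes, and 7 of them lie in the block of type IV chains.

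The chains of type I collagen, the most abundant collagen of the lung interstitium, showed no call with the probe set used for each gene. Their second probe sets, given below, did pass in HeJ lungs. Col1a1, which encodes the chain present in 2 copies per molecule, had signals of 2499.5, 1702 and 2157 in HeJ air, 2143, 1678 and 1221 after 6 h of ozone, 1896, 2098 and 2138 after 24 h and 2681, 2362 and 2347 after 48 h. In OuJ lungs they were 2502, 2348 and 2360.0 in air, 2856, 2316 and 2965 at 6 h, 2166, 2409 and 2206 at 24 h and 2729, 2784 and 2818 at 48 h. The 3 OuJ arrays at 48 h all lay above the 3 air arrays, whereas the HeJ groups overlapped. The difference from air at 48 h was 0.21 in OuJ (95% interval -0.10 to 0.52) and 0.23 ± 0.15 in HeJ (95% interval -0.08 to 0.54, adjusted p = 0.357 by limma). Changes of up to 0.5 on the log2 scale at 48 h therefore lie within these intervals, which hold for this probe set only. In bulk tissue, fewer cells of a type and less RNA per cell cannot be told apart, here and in all results below.

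Col1a2, the partner chain of type I, was not called in any comparison with the probe set used. Its HeJ signals were 5771, 4681 and 6384 in air, 5383, 5976 and 5608 at 24 h and 6334, 4930.3 and 6187 at 48 h, and these groups overlapped. The difference at 48 h was 0.05 ± 0.16 in HeJ lungs (95% interval -0.28 to 0.39, adjusted p = 0.88 by limma) and 0.03 in OuJ lungs.

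Col3a1, the sole chain of type III collagen, which forms thin fibrils beside type I, reached its highest HeJ signals at 48 h. They were 4847, 4076 and 3728 in air, 5081, 3118 and 1935 at 6 h, 3242, 4573 and 3018 at 24 h and 5731, 5704 and 5963 at 48 h. All 3 arrays at 48 h lay above all 3 air arrays and above all 3 arrays at 24 h. The difference was 0.47 ± 0.23 from air (95% interval -0.02 to 0.95, adjusted p = 0.22) and 0.71 ± 0.23 from 24 h (95% interval 0.22 to 1.19, adjusted p = 0.0809), so neither passed in limma. The second of these did pass without HeJ 24 h replicate 2 (0.89, adjusted p = 0.0346). It passed too without HeJ 6 h replicate 1 (adjusted p = 0.0284) or 3 (adjusted p = 0.0272), which left the difference at 0.71. It also passed with the replicate number as a block (adjusted p = 0.0464) and with only the 6 arrays compared, which form their code series (adjusted p = 0.0318). With only the arrays compared the difference from air passed too (adjusted p = 0.0229). In the other settings tried neither passed. With the Gapdh ratio as a covariate the difference from 24 h was 0.81 (adjusted p = 0.138). In OuJ lungs the difference from air at 48 h was 0.18 (adjusted p = 0.743 by limma).

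Type V collagen nucleates fibrils and sets their diameter, and one of its chains passed the test. Col5a2 signals in HeJ lungs were 1523, 1251 and 1225 in air, 1458, 1293 and 1088 at 6 h, 1283, 1634 and 1513 at 24 h and 2226, 1669.6 and 1804 at 48 h. The arrays at 48 h all lay above the air arrays. Col5a2 rose 1.42-fold, by 0.50 ± 0.13 (adjusted p = 0.0148 by limma), where 5.67% of all genes were called higher. The call was lost without HeJ 48 h replicate 1 (0.38, adjusted p = 0.0968), HeJ air replicate 2 (adjusted p = 0.0604) or replicate 3 (adjusted p = 0.066), and without the suffix arrays (adjusted p = 0.0696). OuJ signals were 1627, 1643 and 1233 in air and 1644, 1681 and 1699.9 at 48 h, a difference of 0.17 (adjusted p = 0.523), and the strain difference of the response was not called by limma.

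Col5a1, the other main chain of type V, was lowest in HeJ lungs at 6 h. Its signals were 739.6, 662 and 671 in air and 423, 483 and 543 at 6 h, without overlap, and then 608, 572 and 556 at 24 h and 829.8, 688 and 646 at 48 h. The difference at 6 h was -0.51 ± 0.13 (adjusted p = 0.21 by limma). A second probe set of Col5a1, 1434479_at, read 629, 579 and 423 in HeJ air and 483.5, 571 and 478 at 6 h, which overlapped. Its mean signal in HeJ lungs was 628 at 24 h and 621 at 48 h. In OuJ lungs the probe set used for Col5a1 had signals of 599, 633 and 479 in air and 602, 530.2 and 635 at 6 h. Its strain difference of the 6 h response was 0.56 ± 0.18 (adjusted p = 0.76). Col11a2, a type XI chain best known from cartilage, was dim and scattered, from 29.4 to 250.5 over the 24 arrays.

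Read as a class, no fibrillar chain was called at 6 h in HeJ lungs or from 24 to 48 h in either strain, and only the signs of their differences are described here. At 6 h in HeJ lungs 0 were higher and 6 lower, with a median difference of -0.34 and 2 at an unadjusted p under 0.05. HeJ 6 h replicate 3 was the lowest of the 24 arrays for Col1a1, Col1a2 and Col3a1, and also for the type VI chains Col6a1 and Col6a2. Without that array 5 fibrillar chains were lower and 1 higher, with a median of -0.10, and without HeJ air replicate 1 the counts were the same, with a median of -0.27. In OuJ lungs at 6 h, 3 were higher and 3 lower. Between 24 and 48 h the differences of all 6 were positive in both strains, with 0 in OuJ and 3 in HeJ lungs at an unadjusted p under 0.05. Of all 25 members, 18 were positive in OuJ and 13 in HeJ lungs. The fibrillar differences had a median of 0.26 in OuJ and 0.28 in HeJ lungs, while the medians of all genes lay within 0.01 of 0. In HeJ lungs 4 were higher and 2 lower without the suffix arrays, without HeJ 24 h replicate 1 or without HeJ 48 h replicate 1, and 5 were higher without HeJ 48 h replicate 2 or 3. In OuJ lungs 5 were higher without OuJ 24 h replicate 3. The chains were measured on the same arrays and do not stand for 6 separate observations. All these signs are those of the probe set used for each gene.

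**Figure D2:**
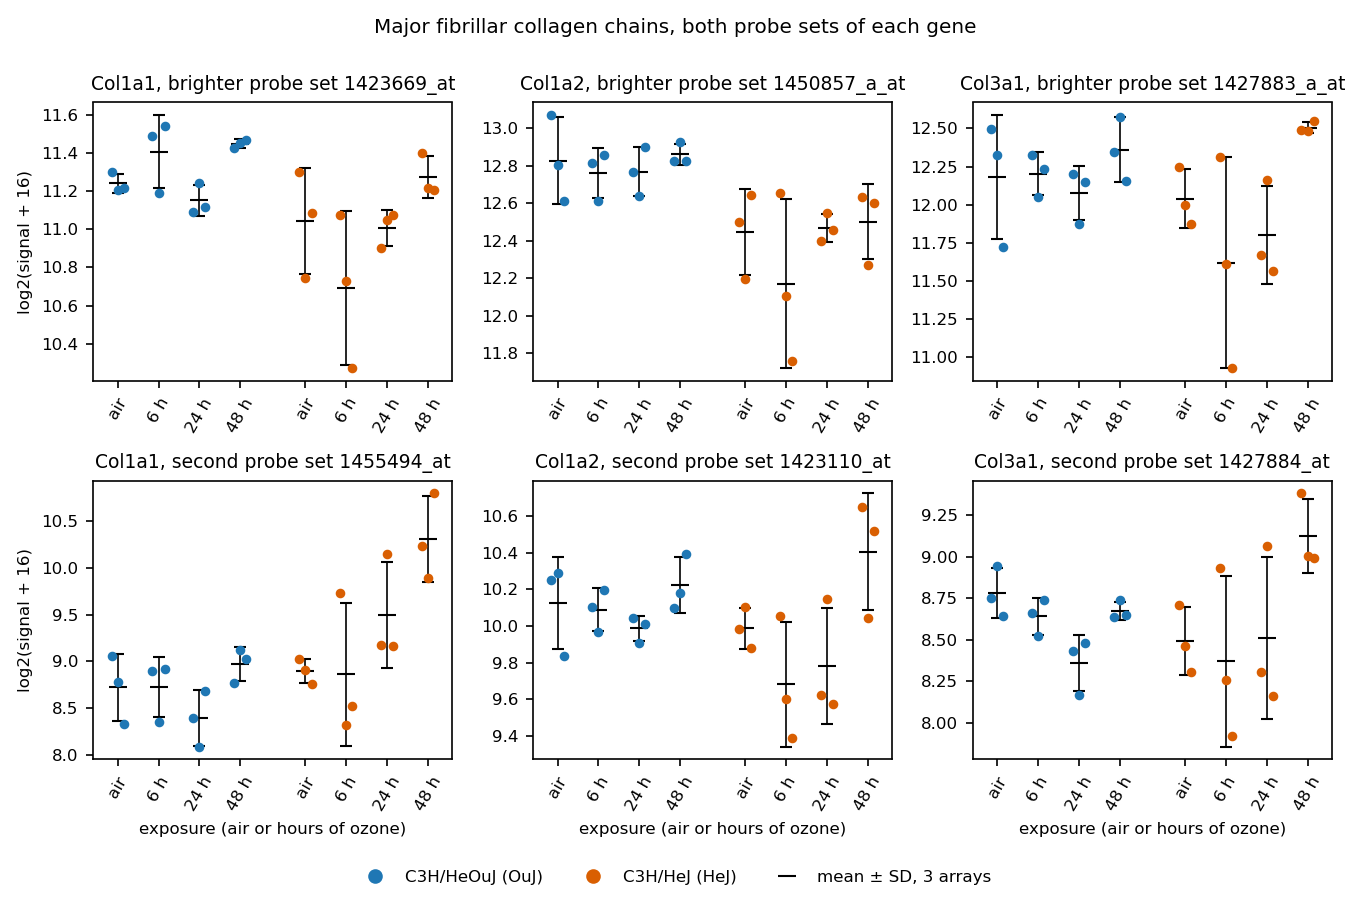
Log2(signal + 16) of Col1a1, Col1a2 and Col3a1 in each group (air or hours of ozone; blue OuJ, orange HeJ; points are single arrays, bars mean ± SD of 3), for the brighter probe set used in the tests (top) and for the second probe set (bottom). In the second probe set of Col1a1, the 3 HeJ arrays at 48 h read 1188, 934 and 1761 in signal, against 503, 464 and 417 in HeJ air.

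The second probe sets of 3 fibrillar genes, looked at after the values were known, gave larger differences in HeJ lungs at 48 h. For Col1a1, probe set 1455494_at had signals of 503, 464 and 417 in HeJ air, 562, 1119 and 557 at 24 h and 1188, 934 and 1761 at 48 h. All 3 arrays at 48 h lay above air, and in a limma fit over probe sets the difference was 1.41 ± 0.31 (adjusted p = 0.00454), against 0.23 (adjusted p = 0.371) for the brighter probe set 1423669_at. Its difference in OuJ lungs was 0.25 (adjusted p = 0.735), and the strain difference was -1.16 ± 0.43 (adjusted p = 0.48). For Col1a2, the second probe set 1423110_at differed by 0.62 ± 0.18 between 24 and 48 h in HeJ lungs (adjusted p = 0.0379 by limma), against 0.03 for the probe set used, which was not called. For Col3a1, 1427884_at differed by 0.63 ± 0.21 from air at 48 h (adjusted p = 0.0627). The second probe set of Col5a2, 1450625_at, differed by 0.25 ± 0.20 from air (adjusted p = 0.495), less than the one used. With the mean of each gene's probe sets, Col1a1 passed at 48 h in HeJ lungs (0.82, adjusted p = 0.00871 by limma) and Col5a2 did not (0.38, adjusted p = 0.0765). The probe sets of a gene thus disagreed in these comparisons for Col1a1, Col1a2 and Col5a2. Those of Col5a1 disagreed at 6 h in HeJ lungs, as given above.

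Among cell types that make fibrillar collagen, the fibroblast markers did not move upward as a list. The summed signal of 8 fibroblast markers in HeJ lungs ranged from 40171 to 44654 in air, from 36460 to 39957 at 24 h and from 35131 to 40792 at 48 h. By sign 3 were higher and 5 lower at 24 h, and 2 higher and 6 lower at 48 h. Thy1 fell at 24 h (-0.55), where 3.96% of all genes were called lower. At 48 h Thy1 (-0.73) and Dpt (-0.69) fell, where 6.44% were. The summed signal of the smooth muscle markers, 6 of 7 of them tested, ranged from 4641 to 6706 in HeJ air. It ranged from 7149 to 9022 at 24 h and from 7840 to 9376 at 48 h. Acta2 and Actg2 of contractile cells rose at both times. Of all genes 3.15% were called higher at 24 h and 5.67% at 48 h. By sign 5 of the tested smooth muscle markers were higher and 1 lower at each time (-0.26 at 24 h and -0.10 at 48 h). The part of these cell types in the fibrillar values was not tested.

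The ubiquitous type IV chains rose in HeJ lungs at 24 h. Col4a1 signals were 7141, 6896 and 7172 in air, 7319.8, 7271 and 8632 at 6 h, 9140.1, 9419 and 10342 at 24 h and 7586, 6723 and 7902 at 48 h. All 3 arrays at 24 h lay above every other HeJ array. Col4a1 rose 1.36-fold at 24 h, by 0.44 ± 0.09 (adjusted p = 0.00406 by limma), and fell from 24 to 48 h by 0.38 ± 0.09 (adjusted p = 0.0196). The rise passed without any single array in turn (0.39 to 0.48, highest adjusted p 0.0302). The fall did not pass without HeJ 24 h replicate 3 (-0.33, adjusted p = 0.0994), HeJ 48 h replicate 2 (-0.31, adjusted p = 0.102), with only the 6 arrays compared (adjusted p = 0.0697) or with each array centred on its median (adjusted p = 0.0536). Without the suffix arrays, which leaves 1 array at 24 h, neither passed (0.40 and -0.35, adjusted p = 0.275 and 0.579). A second probe set, 1426348_at, gave 0.58 ± 0.15 at 24 h (adjusted p = 0.0208) and -0.57 ± 0.15 from 24 to 48 h (adjusted p = 0.0277).

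In OuJ lungs Col4a1 was not called. Its signals were 7238, 6587 and 6652 in air, 8160.2, 6616 and 8302 at 6 h, 7821, 7679.8 and 7940.1 at 24 h and 6534, 6509.7 and 6406 at 48 h. The arrays at 24 h lay above those in air and at 48 h, while 2 of the arrays at 6 h lay higher still. The difference was 0.20 ± 0.09 at 24 h (95% interval 0.01 to 0.39, adjusted p = 0.234) and -0.27 ± 0.09 from 24 to 48 h (adjusted p = 0.427 by limma). The strain difference of the 24 h response was -0.25 ± 0.13 (adjusted p = 0.669), so a difference between the strains was not shown.

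Col4a2, whose promoter window overlaps that of Col4a1, rose in HeJ lungs at the same time. The signals were 4359.6, 4866 and 5406 in HeJ air, 5867, 6857 and 7319 at 24 h and 5704, 5134 and 5722 at 48 h. The arrays at 24 h lay above both other groups. Col4a2 rose 1.37-fold at 24 h, by 0.45 ± 0.12 (adjusted p = 0.018 by limma), and the difference from 24 to 48 h was -0.27 ± 0.12 (adjusted p = 0.182). In OuJ lungs it had signals of 5002, 4887 and 4847 in air and 4817, 6066 and 4729 at 24 h, a difference of 0.07 (95% interval -0.17 to 0.31), and the strain difference was -0.38 ± 0.16 (adjusted p = 0.611). The call at 24 h was lost without HeJ 24 h replicate 3 (0.38, adjusted p = 0.0984), HeJ air replicate 1 (0.37, adjusted p = 0.0971) or 2 (adjusted p = 0.0533), with only the arrays compared (adjusted p = 0.06) and without the suffix arrays (0.50, adjusted p = 0.275). With 3.15% of all genes called higher at this time, the 2 chains were the only members that rose.

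**Figure D3:**
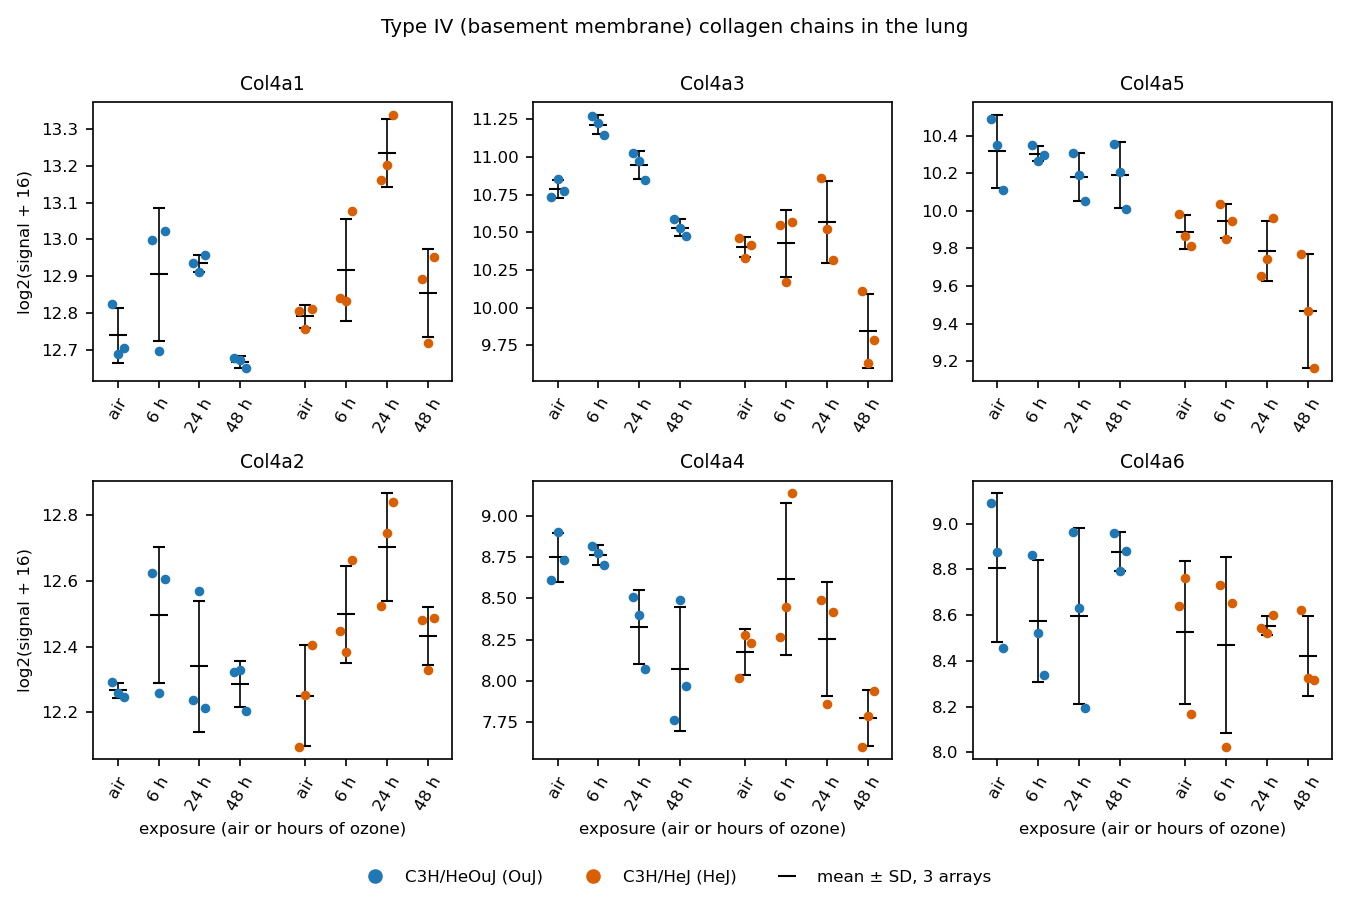
Log2(signal + 16) of the 6 type IV collagen genes in each group (air or hours of ozone; blue OuJ, orange HeJ; points are single arrays, bars mean ± SD of 3). Col4a1 peaks at 24 h in HeJ lungs (signals 9140.1 to 10342), and Col4a3 is lowest there at 48 h (777 to 1091).

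Of the chains of the alveolar and glomerular network, Col4a3 and Col4a5 fell in HeJ lungs at 48 h, and Col4a4 in OuJ lungs. Col4a3 signals in HeJ lungs were 1393, 1270.2 and 1349 in air, 1479, 1135 and 1499.9 at 6 h, 1842, 1453 and 1261 at 24 h and 1091, 777 and 866 at 48 h. The arrays at 48 h were the lowest of the strain, below air and below 24 h. Col4a3 fell to 0.679 of its air level, by 0.56 ± 0.13 (adjusted p = 0.00666), and from 24 to 48 h by 0.72 ± 0.13 (adjusted p = 0.00353 by limma). The fall from 24 h passed without any single array in turn (-0.86 to -0.58, highest adjusted p 0.0357), while the fall from air did not pass without HeJ 48 h replicate 2 (-0.45, adjusted p = 0.0502). Without the suffix arrays the fall from 24 h was -0.68 (adjusted p = 0.226).

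In OuJ lungs Col4a3 signals were 1686, 1831 and 1732 in air, 2459, 2377 and 2256 at 6 h, 2065, 1994 and 1825 at 24 h and 1522, 1464 and 1405 at 48 h. The arrays at 6 h were the highest of this strain and those at 48 h the lowest, with no overlap with air. The differences from air were 0.43 ± 0.13 at 6 h (adjusted p = 0.149) and -0.25 ± 0.13 at 48 h (adjusted p = 0.262), and that from 24 to 48 h was -0.42 ± 0.13 (adjusted p = 0.329 by limma). None passed. The strain difference of the 48 h response was 0.30 ± 0.18 (adjusted p = 0.716).

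Col4a4, the second chain of that network, gave the only call in OuJ lungs. Its signals were 374, 462 and 409.6 in air, 435, 422 and 399 at 6 h, 347, 322 and 253 at 24 h and 201, 343 and 234 at 48 h, and the arrays at 24 and 48 h all lay below air. It fell to 0.626 of its air level at 48 h, by 0.67 ± 0.21 (adjusted p = 0.0455 by limma), where 4.21% of all genes were called lower. In HeJ lungs the signals were 243, 294 and 284 in air and 178, 204 and 229.8 at 48 h, also without overlap, a difference of -0.40 ± 0.21 (adjusted p = 0.238), and the strain difference was -0.28 ± 0.29 (adjusted p = 0.87). The OuJ call lay near the threshold. It was lost without OuJ 48 h replicate 1 (-0.52, adjusted p = 0.206) or 3 (adjusted p = 0.165), without OuJ air replicate 1 (adjusted p = 0.0734), 2 (adjusted p = 0.153) or 3 (adjusted p = 0.0991), and without any of 8 arrays of groups outside the comparison (adjusted p from 0.0504 to 0.0543). It was also lost with no filter on dim genes (adjusted p = 0.0769) and with only the 6 arrays compared (adjusted p = 0.0501).

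Col4a5, the third chain of that network, fell in HeJ lungs at 48 h. Its signals were 997, 916 and 883 in air, 790.5, 841 and 982 at 24 h and 857, 691 and 557 at 48 h, and all 3 arrays at 48 h lay below air. It fell to 0.747 of its air level, by 0.42 ± 0.13 (adjusted p = 0.0412), and a second probe set, 1425476_at, gave -0.45 ± 0.12 (adjusted p = 0.0204 by limma). The call was lost without HeJ 48 h replicate 2 (adjusted p = 0.0947) or 3 (-0.27, adjusted p = 0.241), without HeJ air replicate 1 (adjusted p = 0.138), 2 (adjusted p = 0.0828) or 3 (adjusted p = 0.0626), and without the suffix arrays (adjusted p = 0.0923). Quantile normalisation (adjusted p = 0.0642), no filter (0.0555), no trend of variance with level (0.051) and only the arrays compared (0.106) also left it above the threshold. In OuJ lungs the difference at 48 h was -0.12 ± 0.13 (adjusted p = 0.665), and the strain difference was 0.30 ± 0.19 (adjusted p = 0.742). Col4a6, which lies head to head with Col4a5 with start sites 1343 bases apart, ranged from 244.5 to 530.0 and was not called.

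From 24 to 48 h in HeJ lungs all 6 type IV chains were lower, with a median difference of -0.35 and 5 at an unadjusted p under 0.05, 2 of them called, where 2.85% of all genes were called lower. The count of 6 lower chains stood without any single array in turn and without the suffix arrays, and was 5 with the Gapdh ratio as a covariate. In OuJ lungs 4 were lower and 2 higher, with a median of -0.15. Fibrillar and type IV chains thus lay on opposite sides of 0 in the HeJ comparison, with 6 of 6 fibrillar chains higher and 6 of 6 type IV chains lower. No fibrillar chain was called, however, and the fibrillar count fell without the suffix arrays and without some single arrays, as given above. Over all 25 members, 6 had all 3 arrays at 48 h above those at 24 h (24%, against 12.3% of all genes) and 4 had them below (16%, against 11.6%).

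Endothelial and alveolar type 1 cells lie on these basement membranes. Most endothelial markers were lower in the comparisons in which Col4a3, Col4a4 or Col4a5 fell from air. Of 8 endothelial markers, all tested, limma called 6 lower in HeJ lungs at 48 h (6.44% of all genes were) and 3 lower in OuJ lungs at 48 h (4.21%). By sign, 7 were lower and 1 was higher (0.30) in HeJ lungs at 48 h, all 8 at an unadjusted p under 0.05. In OuJ lungs at 48 h all 8 were lower. At 24 h limma called 1 lower in OuJ lungs (3.41%) and 0 in HeJ lungs (3.96%). In HeJ lungs 5 were then lower and 3 higher, with 6 at an unadjusted p under 0.05 in either direction. At 48 h Col4a1 and Col4a2 were not lower than air in HeJ lungs (0.06 and 0.18), nor were Col4a2 and Col4a6 in OuJ lungs (0.02 and 0.07), and none of these passed. The summed signal of the endothelial markers ranged from 31974 to 33860.3 in HeJ air, from 30737 to 32135 at 24 h and from 24613 to 27289.8 at 48 h. In OuJ lungs it ranged from 26997 to 30793 in air and from 21390.0 to 23751 at 48 h. None of these markers had a mean under 16 over all arrays. Alveolar type 1 markers, 6 in number, summed to between 62057 and 73331 in HeJ air and between 58209 and 63637 at 48 h, with Cav1 lower at 48 h and Aqp5 lower at 24 h. From 24 to 48 h in HeJ lungs all 6 type IV chains were lower. Of the alveolar type 1 markers 3 were then higher and 3 lower. Only Aqp5 among them was called, higher by 0.62 (adjusted p = 0.0131 by limma), where 2.62% of all genes were called higher. Of the endothelial markers 7 were lower and 1 higher, with 6 at an unadjusted p under 0.05 in either direction. Only Pecam1 among them was called, lower by 0.57 (adjusted p = 0.00353 by limma), where 2.85% of all genes were called lower. The part of these cell types in the type IV values was not tested.

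The other proteins of the basement membrane were read from a list of 25 genes, of which 16 were tested. In HeJ lungs at 48 h, 5 fell and none rose. Over all genes 6.44% were called lower in this comparison. The genes were the laminin chains Lama3 (-0.76, adjusted p = 8.97e-05) and Lama4 (-0.68, adjusted p = 0.000669), the proteoglycans Agrn (-0.61, adjusted p = 0.0029) and Hspg2 (-0.46, adjusted p = 0.0359), and Egfl7, secreted by endothelial cells (-0.46, adjusted p = 0.0268 by limma). In OuJ lungs at 48 h, where 4.21% of all genes were called lower, 3 fell: Agrn (-0.63), Lama3 (-0.52) and Lama4 (-0.55). At 24 h, when Col4a1 and Col4a2 rose in HeJ lungs, 1 fell in each strain, Lama3 in HeJ (-0.53, adjusted p = 0.00407) and Lama4 in OuJ (-0.44, adjusted p = 0.0303 by limma). Of all genes, 3.96% were called lower in HeJ and 3.41% in OuJ lungs at that time.

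Type VI collagen forms beaded filaments that anchor cells and vessels in the interstitium, and its largest chain fell in HeJ lungs at 24 h. Col6a3 signals were 2685, 2467 and 2436 in air, 2512, 2245 and 1553 at 6 h, 1716, 2186 and 1140.3 at 24 h and 2254, 2146 and 2027 at 48 h. The arrays at 24 h lay below air but spread over a wide range. Col6a3 fell to 0.645 of its air level at 24 h, by 0.63 ± 0.17 (adjusted p = 0.0227 by limma), where 3.96% of all genes were called lower. The call was lost without HeJ 24 h replicate 3 (-0.38, adjusted p = 0.161), without HeJ air replicate 1 (adjusted p = 0.0808), 2 (adjusted p = 0.0558) or 3 (adjusted p = 0.0515), and without the suffix arrays (-0.22, adjusted p = 0.725). It was also lost with the Gapdh ratio as a covariate (adjusted p = 0.0673) and with only the arrays compared (adjusted p = 0.0881).

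In OuJ lungs Col6a3 signals were 2811, 2868 and 2278 in air, 2053, 1959 and 2154 at 24 h and 2415, 2558 and 2671 at 48 h. The arrays at 24 h again lay below air, with a difference of -0.36 ± 0.17 (adjusted p = 0.236), and the strain difference was 0.27 ± 0.24 (adjusted p = 0.835 by limma). Without HeJ 24 h replicate 2 the change of Col6a3 from 24 to 48 h in HeJ lungs passed (0.61, adjusted p = 0.0246), against 0.40 (adjusted p = 0.179) with it. Col6a1 and Col6a2, the other chains of the filament, were called in no comparison, with differences between -0.17 and 0.27 for Col6a1 and between -0.29 and 0.35 for Col6a2.

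Type XIII collagen is a membrane-spanning collagen of cell contacts. Its gene Col13a1 had signals of 803, 666 and 913 in HeJ air, 756, 730.2 and 458 at 24 h and 1001, 868 and 1014 at 48 h. The arrays at 48 h lay above those at 24 h, and Col13a1 rose between these times by 0.59 ± 0.17 (adjusted p = 0.0488 by limma), where 2.62% of all genes were called higher. In OuJ lungs the signals were 1289, 1001 and 797 at 24 h and 742, 716 and 690.5 at 48 h, in the opposite order and without overlap, a difference of -0.49 ± 0.17 (adjusted p = 0.432). The strain difference was tested against air only, and at 48 h it was -0.64 ± 0.25 (adjusted p = 0.464 by limma). The HeJ call lay at the threshold. It was lost without HeJ 24 h replicate 1 (adjusted p = 0.0684) or 3 (0.36, adjusted p = 0.286), without HeJ 48 h replicate 1 (adjusted p = 0.121), 2 (adjusted p = 0.08) or 3 (adjusted p = 0.141), and without any of 11 arrays of other groups (adjusted p from 0.0541 to 0.0589). It was also lost with quantile normalisation (0.0535), no filter (0.0749), no variance trend (0.0637), the Gapdh covariate (0.128), only the arrays compared (0.108) and without the suffix arrays (0.38, adjusted p = 0.672).

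The remaining chains of other types gave no call, and 3 came closest. Col8a1, a short-chain collagen of vessel walls, had signals of 277, 241 and 198 in OuJ air and 349, 365 and 335 at 48 h, without overlap, a difference of 0.53 ± 0.19 (adjusted p = 0.0871 by limma). Col18a1, whose protein lies in basement membranes and releases endostatin, had signals of 568, 521 and 449 in HeJ air and 849, 728 and 539 at 48 h, which overlapped. Its difference was 0.43 ± 0.17 (adjusted p = 0.111), and it passed without HeJ 48 h replicate 3 (0.61, adjusted p = 0.0356). The second probe set of Col18a1, 1418237_s_at, was not higher, with means of 536 in HeJ air and 510 at 48 h. Col25a1, a membrane-spanning collagen best known from neurons, had signals of 339, 255 and 348 at 24 h and 242, 209 and 183 at 48 h in HeJ lungs, a difference of -0.53 ± 0.18 (adjusted p = 0.0804), which passed without HeJ 24 h replicate 2 (-0.67, adjusted p = 0.034). Col15a1, a basement membrane-associated collagen, differed by -0.82 at 24 h and 0.82 from 24 to 48 h in HeJ lungs with no call (adjusted p = 0.268 and 0.276 by limma). HeJ 24 h replicate 3 read 31.4 for Col15a1, against 189 and 229 for the other HeJ arrays at 24 h. The differences of the rest, over all 12 comparisons, ranged from -0.31 to 0.24 for Col14a1 and from -0.25 to 0.30 for Col16a1, which associate with fibrils, from -0.51 to 0.37 for Col9a1 of cartilage and from -0.40 to 0.31 for Col7a1, which builds anchoring fibrils.

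Between the strains in air no collagen gene was called, but 6 of 25 members (24%) had all 3 OuJ arrays above all 3 HeJ arrays, against 8.79% of all genes, and 2 (8%) had them below, against 12.5%. The largest of the type IV differences were 0.57 ± 0.21 for Col4a4 (adjusted p = 0.183), 0.43 ± 0.13 for Col4a5 (adjusted p = 0.122) and 0.38 ± 0.13 for Col4a3 (adjusted p = 0.155 by limma). Col4a3 signals in air were 1686, 1831 and 1732 in OuJ and 1393, 1270.2 and 1349 in HeJ lungs, and Col4a5 signals were 1422, 1290.2 and 1088 and 997, 916 and 883. With the probe sets used for these chains of the alveolar network the strains did not overlap. The second probe set of Col4a5, 1425476_at, did overlap, with 1162, 1152 and 1254 in OuJ air and 875, 1263 and 992 in HeJ air. Col12a1, a fibril-associated collagen, differed by 0.74 ± 0.29 (adjusted p = 0.225), with signals of 288, 371 and 222 in OuJ and 128, 203 and 174 in HeJ lungs. The mean Gapdh ratio in air was 0.843 in OuJ (0.781 to 0.933) and 0.558 in HeJ lungs (0.511 to 0.621). These ranges did not overlap, so effects of strain and of the ratio cannot be told apart in air. With that ratio as a covariate the strain difference was 0.07 ± 0.16 for Col4a3, 0.32 ± 0.29 for Col4a4, 0.22 ± 0.18 for Col4a5 and 0.22 ± 0.38 for Col12a1 (adjusted p = 0.956, 0.86, 0.848 and 0.942 by limma), and 8 of all genes were called, against 62 without it.

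Genes that fold and modify collagen chains were listed as 22 genes, of which 17 were tested. In OuJ lungs the prolyl hydroxylase subunits P4ha1 and P4ha2, which make the hydroxyproline that stabilises the helix, rose at 24 h (0.97 ± 0.22, adjusted p = 0.00809, and 0.89 ± 0.18, adjusted p = 0.00352) and at 48 h (1.01, adjusted p = 0.00547, and 0.85, adjusted p = 0.00458 by limma). No other gene of the list was called in that strain at those times. Of all genes 3.16% were called higher there at 24 h and 3.7% at 48 h. The strain difference of P4ha1 at 24 h was 0.81 ± 0.31 (adjusted p = 0.531). In HeJ lungs the collagen chaperone Serpinh1 rose at 48 h, by 0.86 ± 0.22 from air (adjusted p = 0.0138) and by 0.90 from 24 h (adjusted p = 0.0216 by limma), and no other gene of the list was called. Of all genes 5.67% were called higher in the former comparison and 2.62% in the latter.

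Of 16 genes that trim collagen ends and cross-link fibrils, 9 were tested. Lox, the enzyme that starts the cross-links, rose in HeJ lungs at 24 h by 2.65 ± 0.42 (adjusted p = 0.000592) and fell from 24 to 48 h by 1.78 ± 0.42 (adjusted p = 0.0187 by limma). Its mean signal was 927 in HeJ air, 5948 at 24 h and 1721 at 48 h. In OuJ lungs the difference at 24 h was 1.37 ± 0.42 (adjusted p = 0.0534), and the strain difference was -1.27 ± 0.60 (adjusted p = 0.627). Pcolce2, an enhancer of procollagen cleavage, fell in HeJ lungs at 48 h by 0.54 (adjusted p = 0.029 by limma). Of all genes 3.15% were called higher in HeJ lungs at 24 h and 6.44% lower at 48 h. From 24 to 48 h 2.85% were called lower.

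Proteins that bind fibrils were listed as 21 genes, 16 of them tested, and in HeJ lungs at 48 h 2 rose and 4 fell, with a median of -0.28, where 5.67% of all genes rose and 6.44% fell. Tnc, a matrix protein of injured tissue, rose by 2.64 ± 0.49 (adjusted p = 0.00107), and Thbs1, which activates latent TGF-beta, rose by 1.70 ± 0.23 (adjusted p = 4.97e-05 by limma). The small proteoglycans Lum (-0.53, adjusted p = 0.0162) and Ogn (-0.69, adjusted p = 0.000463) fell, as did Dpt (-0.69, adjusted p = 0.000492), which binds decorin, and Postn (-0.44, adjusted p = 0.00932). Thbs1 also rose at 24 h in HeJ lungs (1.66) and in OuJ lungs at 24 h (1.52) and 48 h (1.72). Lum was the one gene of the list called at 6 h, in HeJ lungs, where it fell by 0.78 ± 0.14 (adjusted p = 0.0445 by limma). In HeJ lungs Bgn, another small proteoglycan, rose at 24 h (0.36), and from 24 to 48 h Ogn (-0.75), Dpt (-0.56) and Prelp (-0.45), a proteoglycan that binds collagen to basement membranes, fell. Of all genes 3.15% were called higher in HeJ lungs at 24 h, and 3.16% and 3.7% in OuJ lungs at 24 and 48 h. In HeJ lungs 0.0375% were called at 6 h, and 2.85% were called lower from 24 to 48 h. Dpt is also on the fibroblast marker list.

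Among 13 collagen receptors, 7 of them tested, Ddr1, a receptor kinase that binds collagen on epithelial cells, fell in HeJ lungs by 0.83 ± 0.13 at 24 h (adjusted p = 0.000426) and by 0.43 at 48 h (adjusted p = 0.0317 by limma). Among 18 genes of collagen breakdown, 10 of them tested, the protease Mmp3 rose in HeJ lungs by 1.07 ± 0.20 at 24 h (adjusted p = 0.00213) and by 0.81 at 48 h (adjusted p = 0.00931). The collagen-degrading cathepsin Ctsk rose by 1.45 ± 0.21 at 48 h (adjusted p = 7.41e-05), whereas the type IV collagenase Mmp2 fell by 0.49 (adjusted p = 0.0127 by limma). From 24 to 48 h in HeJ lungs Ctsk rose (0.85), and Mmp2 (-0.54) and the lysosomal protease Ctsl (-0.36) fell. In HeJ lungs 3.15% of all genes were called higher and 3.96% lower at 24 h, and 5.67% higher and 6.44% lower at 48 h. From 24 to 48 h the shares were 2.62% higher and 2.85% lower.

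Genes of profibrotic signalling were listed as 24, of which 19 were tested. In OuJ lungs at 24 h, 3 rose and 2 fell, where 3.16% of all genes rose and 3.41% fell: Ltbp2 (0.53), Smad7 (0.56) and Skil (0.72), of which Smad7 and Skil restrain TGF-beta signalling, rose, and the growth factors Pdgfa (-0.96 ± 0.16) and Tgfb2 (-0.64) fell. At 48 h in OuJ lungs, where 3.7% of all genes rose, Skil (0.81) and Ltbp2 (0.42) rose and Tgfb2 (-0.55) and Pdgfa (-0.55) fell. In HeJ lungs Ltbp2 rose (0.49) and Pdgfa fell (-0.96) at 24 h, and Pdgfa fell at 48 h (-1.02). The TGF-beta co-receptor gene Tgfbr3 fell from 24 to 48 h in HeJ lungs (-0.87). At 48 h in OuJ lungs 4.21% of all genes fell. In HeJ lungs 3.15% rose and 3.96% fell at 24 h, and 6.44% fell at 48 h. From 24 to 48 h 2.85% fell there.

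Within groups, 4 of 8 pairs of chains varied together from array to array, and 3 of them share a molecule. The deviations of the 24 arrays from their group means were correlated for 8 pairs of chains, with p from 100000 permutations within groups, two-sided, and Benjamini-Hochberg adjustment over the 8 pairs. For Col1a1 and Col1a2 Pearson's r was 0.779 (permutation p = 0.0107, adjusted 0.0215) and Spearman's rho 0.578 (permutation p = 0.0267, adjusted 0.0534), and r was 0.546 without the 2 arrays farthest from the median of Col1a1. For Col4a1 and Col4a2 r was 0.675 (permutation p = 0.00587, adjusted 0.0157) and rho 0.652 (permutation p = 0.00799, adjusted 0.0332), and r was 0.532 without 2 arrays. For Col6a1 and Col6a2 r was 0.861 (permutation p = 0.00389, adjusted 0.0157) and rho 0.688 (permutation p = 0.00829, adjusted 0.0332), and r was 0.715 without 2 arrays. Col3a1 and Col5a2, which meet in the fibril but not in 1 molecule, had an r of 0.686 (permutation p = 0.00555, adjusted 0.0157) and a rho of 0.602 (permutation p = 0.0146, adjusted 0.0389), and r was 0.595 without 2 arrays.

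The pair of Col1a1 and Col1a2 passed by r and not by rho. The other 4 pairs passed by neither, and 2 of them, Col6a1 with Col6a3 and Col5a1 with Col5a2, also share a molecule. Col1a1 and Col3a1 had an r of 0.641 (permutation p = 0.0517, adjusted 0.0827) that was 0.225 without 2 arrays, with a rho of 0.330 (permutation p = 0.181, adjusted 0.289), so that it rested on those arrays. For Col6a1 and Col6a3 r was 0.505 (permutation p = 0.144, adjusted 0.192) and rho 0.295 (permutation p = 0.285, adjusted 0.326), and r was 0.180 without 2 arrays. For Col5a1 and Col5a2 r was 0.320 (permutation p = 0.249, adjusted 0.285) and rho 0.317 (permutation p = 0.229, adjusted 0.305), and r was 0.177 without 2 arrays. Across classes, Col1a1 and Col4a1 had an r of 0.0245 (permutation p = 0.943, adjusted 0.943) and a rho of 0.238 (permutation p = 0.404, adjusted 0.404), but r was 0.534 without the 2 arrays farthest from the median of Col1a1. Deviations of genes measured on one array also share its RNA quality and scaling, whose part in these correlations was not tested.

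**Figure D4:**
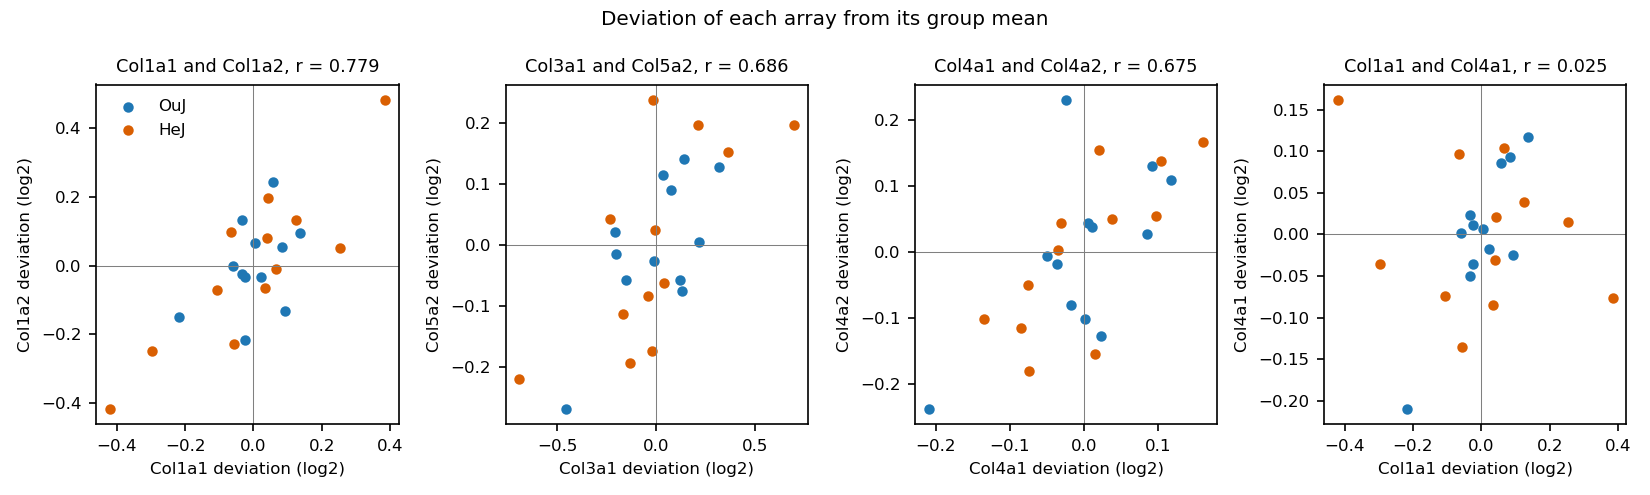
Deviation of each array's log2(signal + 16) from its group mean for 4 pairs of collagen genes (1 gene per axis; 24 points, blue OuJ, orange HeJ). Pearson's r is 0.779 for Col1a1 with Col1a2, 0.686 for Col3a1 with Col5a2, 0.675 for Col4a1 with Col4a2 and 0.0245 for Col1a1 with Col4a1.

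The genes whose levels followed Col1a1 most closely over the 24 arrays, by Pearson's r of log2(signal + 16) among all 8008 tested genes, were Lgals1 (0.796), Flna (0.789), Pcolce (0.783), Itfg1 (0.779), Tubb5 (0.770) and Mrpl34 (0.770). Pcolce encodes the enhancer of the protease that trims type I procollagen. These values describe the arrays, which share group differences, and carry no test.

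The 11 members that were not tested were dim in these lungs. The cartilage chains Col2a1 and Col9a2 had signals of 5.1 to 22.5 and of 1.6 to 5.7, with 22 and 24 of 24 arrays below 16, and Col9a3 ranged from 14.1 to 30.7. Col10a1 of growth-plate cartilage ranged from 4.8 to 46.3 and Col11a1 from 39.6 to 111. Col17a1, the hemidesmosome collagen of stratified epithelia, ranged from 8.4 to 141, and Col5a3, the third type V chain, from 119.5 to 266, with 2 arrays above the threshold. Col19a1 (6.6 to 80.3), Col20a1 (46.1 to 120.0), Col22a1 (1.6 to 34.3) and Col26a1 (8.6 to 79.1) were the others. A dim probe set says only that the gene was not measured well on this array.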

How the data were processed

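RNA from 24 lung samples was hybridised to Affymetrix mouse expression arrays. The deposited values are linear signal intensities from GCOS 1.4, per the submitters' processing notes, and the trimmed mean of each array was 500.1 to 500.2 in the deposited intensity values. Array medians were 200.1 to 229.3, and 8.69 to 11.7% of probe sets were below 16. The number of arrays limits the precision; the labels call the samples of a group biological replicates, with RNA from individual lungs.

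Of 22690 probe sets, 20380 had 1 symbol, 691 several and 1606 none; 64 controls were left out. Probe sets above 218.3 in at least 3 arrays were kept (12895), and the probe set with the highest mean log2(signal + 16) stood for a gene. limma 3.58.1 in R 4.3.3 fitted 1 mean per group, with a trend of variance with level, and p-values were adjusted by Benjamini-Hochberg over 8008 genes. The fit was tested on simulated data. The text names every called member, Col1a1, Col1a2, Col3a1, Col4a1 and Col4a2, each uncalled member with its values or range, genes of the accompanying lists in order of p, and the 6 genes most like Col1a1. The uncalled members given in detail, the second probe sets and a 5th called basement membrane gene were chosen after values were seen. The members and lists were chosen with earlier results of these data known, so counts over them are descriptions.

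Alternatives were other pseudocounts (1 and 64), quantile normalisation, median centring, no filter, no trend, the mean of a gene's probe sets, only the groups compared, the code series, the Gapdh ratio as a covariate, a replicate block, and leaving out the suffix arrays or each array in turn. Same-numbered arrays of different groups deviated together little on average (mean r of deviations 0.0298, range -0.102 to 0.201). For differently numbered arrays the mean r was -0.0148. The samples were treated as unpaired, but a mean over all genes cannot exclude a pairing.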

Additional observations from a re-analysis of the deposited data

How the results depend on the processing

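Of the counts of called members under settings other than leaving out an array, 132 stayed within 1.5 times the reported value and 6 moved. All 6 moves fell in the 4 comparisons with a member call. In the other comparisons the count stayed at 0, and these are included in the 132. OuJ 48 h went from 1 to 0 with no filter and with only the groups compared. HeJ 24 h went from 3 to 1 (Col4a1) with only the groups compared, and without the 4 suffix arrays to 0, while HeJ 48 h then went from 3 to 1 (Col4a3) and HeJ 48 h against 24 h from 3 to 0. Leaving out each array in turn gave 0 to 1 for OuJ 48 h, 1 to 3 for HeJ 24 h, 1 to 3 for HeJ 48 h and 1 to 6 for HeJ 48 h against 24 h, and 0 for every other comparison. With the replicate number as a block the counts were 1, 3, 3 and 4 in that order, the added gene being Col3a1. Single called genes kept direction and call in 279 of the recomputed values, lost the call in 74 and reversed in 0.

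The background moved as well. Without the suffix arrays 41 of all genes were called at HeJ 24 h (569 as reported), 660 at HeJ 48 h (970) and 1 at HeJ 48 h against 24 h (438). With the Gapdh covariate the numbers were 278 at HeJ 24 h and 86 at HeJ 48 h against 24 h, and with only the groups compared 364 and 200. The latter setting also gave 5 at OuJ 6 h, 6 at OuJ 48 h against 24 h and 11 for the strain difference at 48 h (0 as reported), and the Gapdh covariate 8 for the strains in air. The replicate block gave 35 at OuJ 6 h (11 as reported) and 97 for the strains in air (62), and median centring 38 at OuJ 6 h and 21 at OuJ 48 h against 24 h (12). The cause was not tested, except that leaving out arrays leaves fewer samples. Dim chains (Col11a2, Col15a1, Col9a1) lie near the detection range, which limits what their values can show.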
